A study of Bos taurus with 8 samples.

Results

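The chromosome 4 locus is a densely tiled stretch on a custom 2-colour DNA methylation array of the cow genome. It comprises all 406 non-control probes with starts from 28306692 to 28517774 on chromosome 4 (Btau_3.1), out of 10249 non-control probes on the array. The members were chosen by position alone. No gene is paired with a probe in the tables and no Btau_3.1 annotation was used here, so positions are given by coordinates only, with no statement on genes, exons or introns.

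Methylation at CpG dinucleotides is a covalent mark on cytosine that is copied to the new strand when DNA replicates. A methyl-CpG binding domain protein holds double-stranded fragments that carry methylated CpG, so a captured fraction set against total DNA reports both how methylated a stretch is and how many CpG sites it holds. Stretches poor in CpG are captured weakly even when each site is methylated. The arcuate nucleus of the hypothalamus, from which the DNA came, senses nutrients and hormones such as leptin and takes part in the control of feeding and of reproductive maturation.

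The study asked whether nutrition before puberty changes methylation there. DNA came from 4 high-gain heifers (heifers 1 to 4, fed for a target gain of 1 kg per day) and 4 low-gain heifers (heifers 5 to 8, fed for 0.5 kg per day), all female, fed on these schedules from 4.5 to 8.5 months of age, when tissue was taken. Each heifer gave 1 array, on which enriched DNA (Alexa Fluor 647) and input DNA (Alexa Fluor 555) were hybridised together. The samples are whole tissue pieces, so a change in methylation within cells and a change in the mix of cells cannot be told apart, and an array of DNA holds no expression marker with which to check the tissue.

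Values are log2(enriched/input) minus the median of all non-control probes of the same array. The zero of this scale is the median probe, not unmethylated DNA, and a change common to all probes is removed. All 8 arrays lay on 1 slide, with heifers 1, 2, 5 and 6 in slide row 1 and heifers 3, 4, 7 and 8 in slide row 2. Slide column 1 held only high-gain heifers 1 and 3, and column 3 only low-gain heifers 5 and 8. Column 2 held heifers 2 and 7 and column 4 heifers 4 and 6, so feeding and slide column are partly confounded. The arrays differed in spread, with interquartile ranges over all probes from 0.764 in heifer 1 to 2.37 in heifer 8. Low-gain heifers 6, 7 and 8 shared a probe profile that low-gain heifer 5 did not share (below), so results are also given without heifer 5 where that changes them.

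The locus spanned 211082 bp, from the first probe at 28306692 to the end of the last at 28517774. Probes were 45 to 60 bp long. Neighbouring starts lay a median of 337 bp apart (155 to 5964 bp), and 38 gaps exceeded 1000 bp. Joining probes whose starts lay at most 1000 bp apart gave 27 regions of 3 to 51 probes that held 390 of the 406 probes. Windows of 10 kb from the first probe gave 21 windows.

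As a whole, the locus was less enriched than the median probe. Its mean log2 ratio read -0.20, 0.14, -0.25 and -0.75 in high-gain heifers 1 to 4. In low-gain heifers 5 to 8 it was -0.22, -0.71, -0.44 and -0.68. It lay below 0 on 7 of 8 arrays, the exception being high-gain heifer 2. The mean of both group means was -0.39 (standard error 0.089, n = 8; limma, Benjamini-Hochberg adjusted p = 0.00892 over 97 tiled loci). Of the 97 loci, 34% passed this test in the same direction, and this locus was the 8th lowest; 7.22% passed above 0. The mean of all probes outside the locus also lay slightly below the array median, at -0.093 ± 0.075 for heifers 1 to 4 and -0.11 ± 0.070 for heifers 5 to 8 (SD, n = 4 each). The locus minus those probes came to -0.17 ± 0.31 on the high-gain and -0.40 ± 0.19 on the low-gain arrays (SD, n = 4 each). The heifers of slide row 1 alone gave -0.25, short of the threshold (limma, adjusted p = 0.234), and those of slide row 2 gave -0.53 (limma, adjusted p = 8.87e-05).

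**Figure D1:**
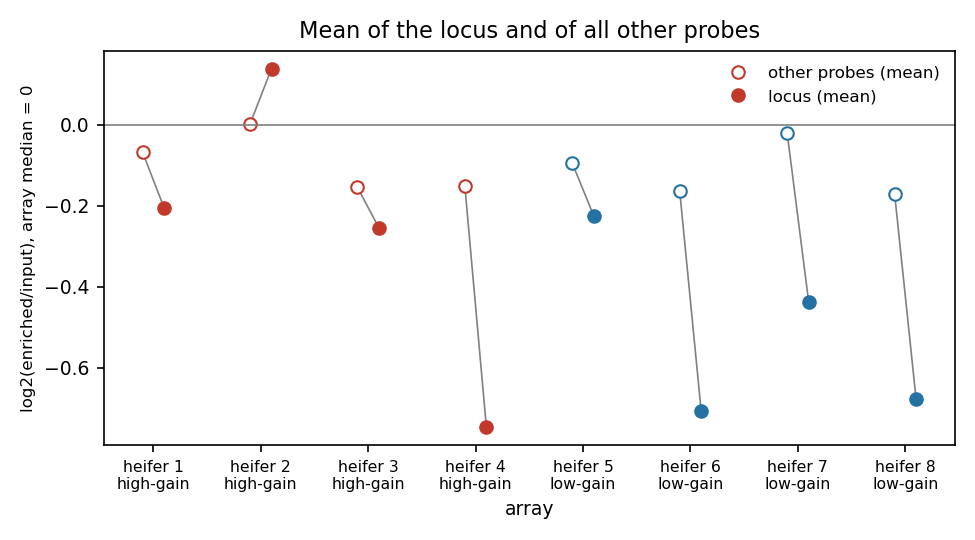
Mean log2(enriched/input) of the 406 locus probes (filled) and of all other non-control probes (open) on each array, red for high-gain and blue for low-gain heifers, with 0 as the array median. The locus lies below the other probes on 7 of 8 arrays, and heifers 4, 6 and 8 have the lowest locus means.

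Both dye channels were read beside this low ratio. The input signal of the locus was above that of the other probes on 7 of 8 arrays (mean of the log2 signal relative to the array median, 0.19 ± 0.081 against 0.025 ± 0.011 with high gain and 0.19 ± 0.13 against 0.038 ± 0.014 with low gain, SD, n = 4 each). The enriched signal was below that of the other probes on 4 of 8 arrays, those of heifers 4, 6, 7 and 8. Its mean was 0.21 ± 0.20 against 0.22 ± 0.11 with high gain and -0.037 ± 0.20 against 0.22 ± 0.063 with low gain (SD, n = 4 each). Locus probes were also longer, with a median of 60 bp against 50 bp. The part of input brightness and probe length in the low mean was not tested.

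Along the locus the low values were widespread. The mean of both groups lay below 0 in 26 of 27 regions, where 56% of all 960 regions on the array did, and in 21 of 21 windows, against 58.5% of all windows. At an adjusted p under 0.05, 8 of 27 regions were below the array median and 0 above it, against 9.58% and 3.33% of all regions (limma). Leaving out heifer 5 made that count 14, and leaving out heifer 2 made it 12. The count was 5 without heifer 4, 4 without heifer 1 or 7, and 3 without heifer 3, 6 or 8. The share of all regions called in either direction moved too, from 12.9% with all heifers to 27.0% without heifer 5 and 15.7% without heifer 2. It was 7.29% without heifer 4, 8.02% and 6.56% without heifer 1 and 7, and 4.17% to 5.21% without heifer 3, 6 or 8. Single arrays were not uniform, since high-gain heifer 4 had 27 of 27 regions below 0 and high-gain heifer 2 had 7.

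**Figure D2:**
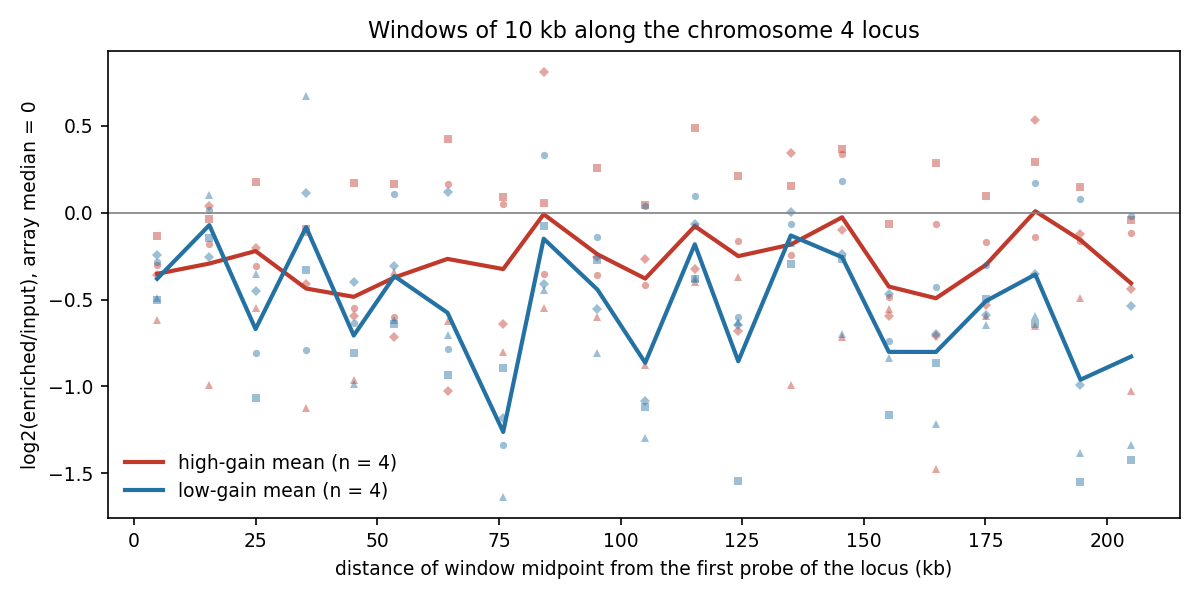
Mean log2(enriched/input) per window of 10 kb against its distance from the first probe of the locus, with 1 point per array (red high-gain, blue low-gain) and lines for the group means (n = 4). Both lines stay at or below about 0 along the whole locus, and the low-gain line is deepest near 75 kb.

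The deepest trough was the 7-probe region at 28460643 to 28462751. It averaged -0.07, -0.37, -1.04 and -0.61 in heifers 1 to 4, and -1.33, -2.33, -1.25 and -1.86 in heifers 5 to 8. It was below 0 on 8 of 8 arrays, with a mean of -1.11 (standard error 0.15; limma, adjusted p = 0.00124 over 960 regions). The 6-probe region at 28348935 to 28350768 followed, with -0.66, 0.01, -0.62 and -1.63 in heifers 1 to 4 and -0.999, -1.71, -0.84 and -1.21 in heifers 5 to 8. Its mean was -0.96 (standard error 0.17; limma, adjusted p = 0.00531), with high-gain heifer 2 alone above 0. None of its 6 probes was below background in the enriched channel on all arrays of a group. The 7-probe region at 28378532 to 28381732 had a mean of -0.90 (standard error 0.15; limma, adjusted p = 0.00393), with its values per heifer given below. Its call was lost within slide row 1 (-0.62; limma, adjusted p = 0.0884).

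Next came the regions at 28464911 to 28473579 (27 probes, -0.72; limma, adjusted p = 0.0199) and at 28507769 to 28515497 (26 probes, -0.62; limma, adjusted p = 0.0376). They are broad rather than deep. Both calls were lost within slide row 1 and when single heifers were left out. The former did not pass without heifer 3, 6 or 8 (limma, adjusted p = 0.0606, 0.0579 and 0.0619). The latter did not pass without heifer 1, 3, 4, 6, 7 or 8 (limma, adjusted p from 0.0521 to 0.107). At the scale of 10 kb, the lowest windows began at 28378532 (-0.79), 28466968 (-0.65) and 28406973 (-0.62).

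No region stood clearly above the array median. The 5 highest were those at 28443977 to 28445068 (0.064), 28318672 to 28320565 (-0.025), 28393389 to 28394887 (-0.040), 28438295 to 28439890 (-0.058) and 28386174 to 28391989 (-0.12). The first held 3 probes and was the only 1 of 27 above 0, at 0.05, 0.11, -0.11 and -0.62 in heifers 1 to 4 and 0.47, 0.14, 0.19 and 0.28 in heifers 5 to 8. Heifer 4 was low there and all low-gain heifers were above 0. The 3 highest windows began at 28386883 (-0.079), 28417150 (-0.13) and 28447772 (-0.14).

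The arrays varied widely within the locus. The SD between heifers of a group at a single probe had a median of 1.12 (high gain) and 1.02 (low gain), against 0.803 and 0.791 at the other probes. The interquartile range across the locus probes of 1 array was 1.03, 0.927, 2.10 and 2.44 in heifers 1 to 4, and 1.76, 2.17, 1.31 and 2.52 in heifers 5 to 8. It exceeded that of the other probes on 6 of 8 arrays, with high-gain heifer 2 (0.936 outside) and low-gain heifer 7 (1.86 outside) as exceptions. Values below -1 made up 9.36% of the locus probes in high-gain heifer 2 and 52.7% in high-gain heifer 4. These heifers shared a feeding schedule yet lay further apart than the group means, which were 28.3% ± 19.2 for high gain and 38.5% ± 12.2 for low gain (SD, n = 4 each).

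The heifers also differed in the order of the probes. Low-gain heifers 6, 7 and 8 correlated with each other at r = 0.535 to 0.648 across the locus probes. For low-gain heifer 5 the r with each of them was 0.0614 to 0.167, and for pairs of high-gain heifers it was 0.0368 to 0.148. High-gain heifer 3 lay closer to low-gain heifers 5 to 8 (0.267 to 0.290) than to the other high-gain heifers (0.0855 to 0.142). These are descriptions over probes that share arrays and slide, and the pairs within a group over the other probes ranged similarly (0.0427 to 0.191 for high gain and 0.0915 to 0.668 for low gain). Neighbouring probes carried little of a common profile. Probes up to 300 bp apart had means that correlated at r = 0.275 (167 pairs), and probes 300 to 1000 bp apart at 0.0326 (634 pairs).

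Between the feeding groups, the locus as a whole did not differ beyond the spread between heifers. High-gain heifers had a mean of -0.27 ± 0.36 and low-gain heifers one of -0.51 ± 0.23 (SD, n = 4 each). The difference of 0.24 (standard error 0.18) did not pass (limma, adjusted p = 0.518 over 97 loci), and 0% of the loci passed in either direction, while 4.12% were higher and 10.3% lower at unadjusted p under 0.05. High-gain heifer 4 had the lowest mean of all 8 arrays and low-gain heifer 5 lay among the high-gain heifers, so the groups overlapped. Slide row 1 alone gave 0.43 and slide row 2 alone 0.057. With the slide column as a block the difference was 0.27 (standard error 0.22; limma, adjusted p = 0.609). Leaving out 1 heifer gave values from 0.11 (heifer 2) to 0.40 (heifer 4). It passed with weights that lower the influence of the more variable arrays (0.44; limma, adjusted p = 0.0197), under which 33.0% of all loci passed.

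None of the 406 probes passed either (limma, adjusted over 10249 probes, of which 0% passed in either direction). The unadjusted p fell under 0.05 at 33 probes with higher values in high-gain heifers and at 18 with lower values. These shares of 8.13% and 4.43% lie near those over all probes, 7.21% and 5.23%. A positive difference was found at 250 of the 406 probes (61.6%), against 44.7% of all probes. The groups did not overlap at 4 higher and 13 lower probes, against 2.68% and 4.21% of all probes. The count of 33 became 57 without heifer 5, 54 without heifer 4, 21 without heifer 1, 18 without heifer 6 and 16 without heifer 8. These were 14.0%, 13.3%, 5.17%, 4.43% and 3.94% of locus probes, against 10.9%, 8.66%, 5.86%, 4.90% and 4.33% of all probes. The count of 18 became 28 without heifer 5 (6.90%), against 11.9% of all probes. Without that heifer 7 locus probes (1.72%) passed the adjusted threshold, against 3.01% of all probes (limma). No 3 neighbouring probes within 1000 bp of each other reached unadjusted p under 0.05 with the same sign, so the locus held 0 runs.

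The direction of the differences went with how bright a probe was. The scanner software calls a spot well above background or not in each channel. At the 138 locus probes well above background in both channels on all 8 arrays, 110 (79.7%) were higher in high-gain heifers, against 46.0% of such probes elsewhere on the array. Of the 138, 21 (15.2%) had higher and 0 lower values at unadjusted p under 0.05, against 9.64% and 3.26% elsewhere. At the 142 probes whose input was not above background on every array, 48 (33.8%) were higher, against 29.1% of such probes elsewhere. Among them the unadjusted p fell under 0.05 at 2 (1.41%) with higher and 16 (11.3%) with lower values, near the 1.76% and 10.9% elsewhere. All 13 probes at which the high-gain arrays lay wholly below the low-gain arrays were among these 142 (9.15%), and 7.14% of such probes elsewhere were separated in the same way. The test of the locus against the rest of the array in these shares was not run, and probes of 1 array are not replicates. The input signal helps set the class and is also the denominator of the ratio, so class and direction are not independent.

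**Figure D3:**
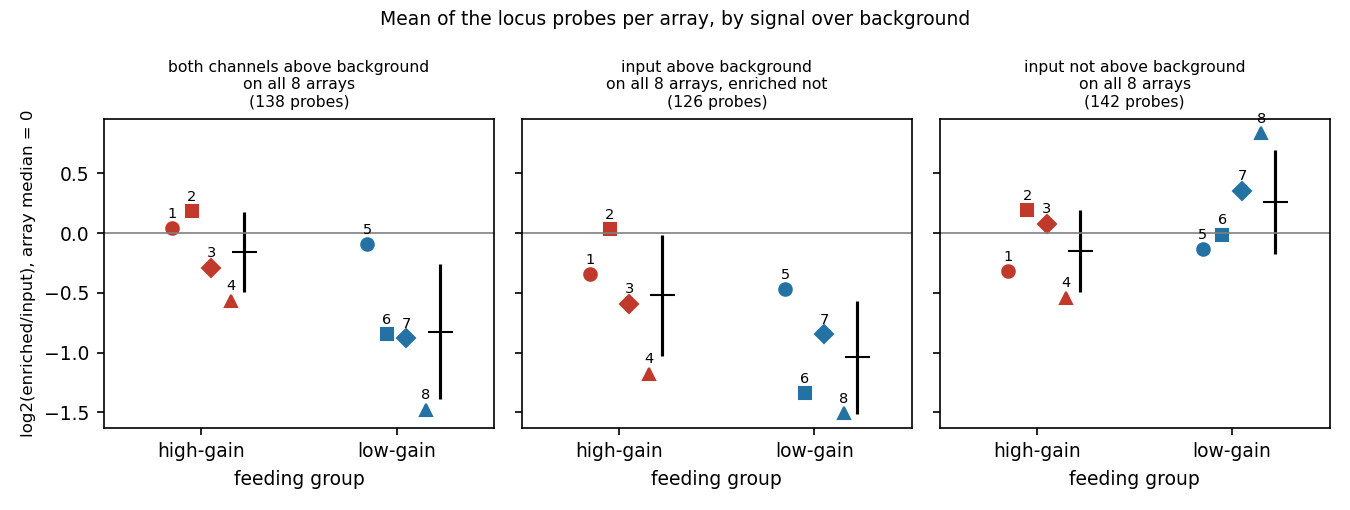
Mean log2(enriched/input) of the locus probes per array, by feeding group, in 3 classes of probes split by whether each channel was well above background on all 8 arrays; numbers are heifers, and bars are the group mean ± SD (n = 4). The high-gain mean is above the low-gain mean in the first 2 classes and below it in the dimmest class.

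Averaged over the 138 brightest probes, the arrays read 0.043, 0.18, -0.29 and -0.57 in heifers 1 to 4 and -0.092, -0.85, -0.88 and -1.48 in heifers 5 to 8. High-gain heifers averaged -0.16 ± 0.34 and low-gain heifers -0.82 ± 0.57 (SD, n = 4 each), with low-gain heifer 5 inside the high-gain range. Restricted to such probes on the whole array, the difference of the locus was 0.67 (standard error 0.25) and did not pass (limma, adjusted p = 0.105). Over the 142 probes with dim input, the arrays read -0.32, 0.19, 0.078 and -0.54 in heifers 1 to 4 and -0.13, -0.012, 0.35 and 0.83 in heifers 5 to 8. The group means were there -0.15 ± 0.34 for high gain and 0.26 ± 0.44 for low gain (SD, n = 4 each), so these 2 classes pulled the locus mean in opposite directions. The other 126 probes had input, but not enriched signal, above background on all 8 arrays. Of these, 92 (73.0%) were higher in high-gain heifers, against 57.8% of such probes elsewhere. Their group means were -0.52 ± 0.51 for high gain and -1.04 ± 0.47 for low gain (SD, n = 4 each), the same direction as in the brightest class.

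On a given array, locus probes that were dim in both channels read above the array median on all 8 arrays. Their median value was 0.45, 0.23, 0.72 and 0.54 in heifers 1 to 4 and 0.86, 1.16, 1.51 and 1.80 in heifers 5 to 8, without overlap between the groups. The same medians outside the locus were not computed, so this gap cannot be called particular to the locus. Such spots have no measured ratio, and they numbered 38 to 80 per high-gain array and 59 to 100 per low-gain array. Enriched signal well above background was found at 71.5% ± 3.098 of locus probes for high gain and 57.4% ± 12.5 for low gain (SD, n = 4 each), with heifer 8 lowest at 39.7% and low-gain heifer 7 (68.2%) at the level of high-gain heifer 3 (68.2%). Outside the locus these shares were 73.9% ± 2.25 and 62.5% ± 8.43 (SD, n = 4 each), with no overlap, so the gap between the groups was present across the array. For input, the shares in the locus were 83.7% ± 5.24 and 80.8% ± 4.27 (SD, n = 4 each). The part of dim spots in the group differences was not tested.

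Among the 27 regions, the unadjusted p fell under 0.05 in 3 with higher values in high-gain heifers (11.1%) and in 0 with lower values. Over all regions these shares were 6.25% and 8.23%. The difference was positive in 20 of 27 regions, against 47.9% of all regions. None passed the adjusted threshold, which 0.104% of all regions passed upward and 0% downward (limma, over 960 regions). The groups did not overlap in 2 regions that were higher and 1 that was lower, against 2.6% and 3.65% of all regions. The count of 3 became 5 without heifer 4 (18.5%), against 8.65% of all regions. It became 2 without heifer 1, 2, 3, 6 or 8 (7.41%), against 4.17% to 8.13% of all regions. It was 5 in slide row 1 alone (18.5%) and 0 in slide row 2 alone, against 6.98% and 5.52% of all regions.

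**Figure D4:**
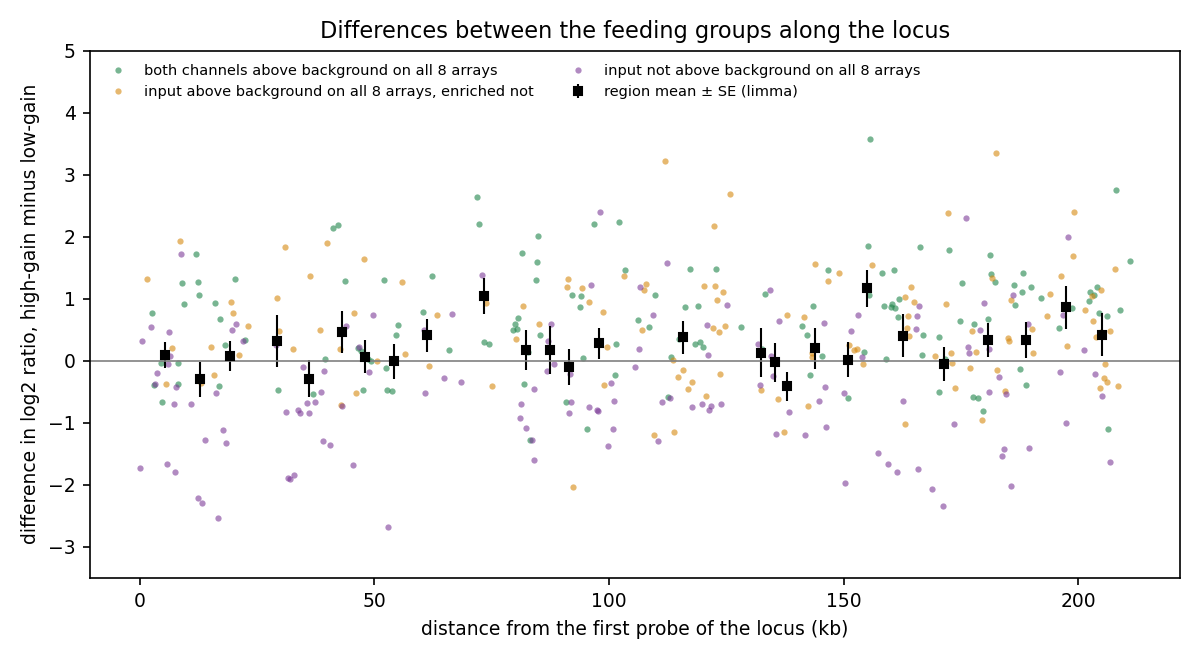
Difference in log2(enriched/input), high-gain minus low-gain, for each of the 406 probes (dots, coloured by signal over background) and each of the 27 regions (black squares, ± standard error from limma) against distance from the first probe of the locus. Probes with dim input lie mostly below 0, brighter probes mostly above it, and the 2 highest regions stand near 75 kb and 155 kb.

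The largest difference by moderated t lay in the trough at 28460643 to 28462751, the region with the lowest mean. The high-gain heifers averaged -0.52 ± 0.41 and the low-gain heifers -1.69 ± 0.51 (SD, n = 4 each), a difference of 1.17 (standard error 0.30; limma, unadjusted p = 0.00195, adjusted p = 0.173). The groups did not overlap, with heifers 3 (-1.04) and 7 (-1.25) the closest pair. The difference lay in the enriched channel (1.05), with -0.12 in input. It came to 1.61 in slide row 1 and 0.73 in slide row 2. Of its 7 probes, 2 lacked enriched signal well above background on all 4 low-gain arrays.

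The second was the region at 28378532 to 28381732. Its values were 0.11, 0.09, -1.08 and -0.63 in heifers 1 to 4 and -1.51, -1.15, -1.34 and -1.71 in heifers 5 to 8. All low-gain heifers were low and close together, while the high-gain heifers split into heifers 1 and 2 near 0 and heifers 3 and 4 well below it. The difference was 1.05 (standard error 0.29; limma, unadjusted p = 0.00359, adjusted p = 0.175), with 1.21 in the enriched and 0.17 in the input channel. It came to 1.43 in slide row 1, which held heifers 1 and 2, and 0.67 in slide row 2, which held heifers 3 and 4. Here too 2 of the 7 probes were dim in the enriched channel on all 4 low-gain arrays.

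The third, at 28502511 to 28505726 (10 probes), read -0.11, 0.09, 0.21 and -0.74 in heifers 1 to 4 and -0.10, -1.86, -0.91 and -1.13 in heifers 5 to 8. Its difference was 0.86 (standard error 0.35; limma, unadjusted p = 0.0295, adjusted p = 0.295). Low-gain heifer 5 lay inside the high-gain range, so the groups overlapped and the gap rested on low-gain heifers 6, 7 and 8. The difference was 1.16 without heifer 5 and 0.57 without heifer 6, neither past the adjusted threshold (limma, adjusted p = 0.0646 and 0.550). With array weights all 3 regions passed (limma, adjusted p = 0.0171, 0.0171 and 0.0199), as did 20.0% of all regions.

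**Figure D5:**
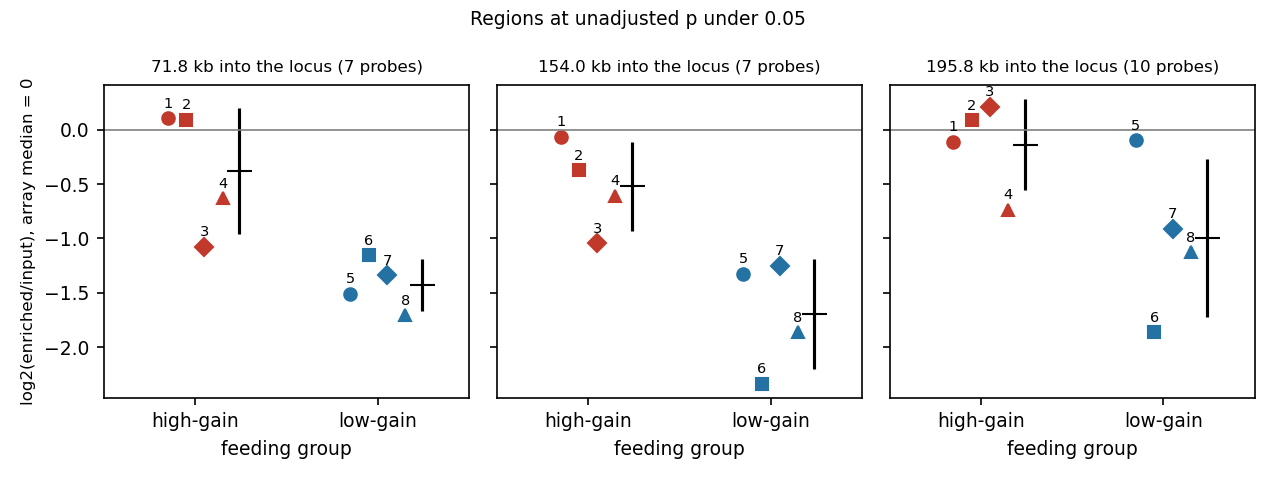
Mean log2(enriched/input) per array for the 3 regions of the locus at unadjusted p under 0.05, by feeding group; numbers are heifers, and bars are the group mean ± SD (n = 4). The groups are separate in the first 2 regions, and in the last heifer 5 lies among the high-gain heifers.

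The other regions high by moderated t were those at 28366990 to 28368982 (5 probes, 0.41) and 28412290 to 28432557 (51 probes, 0.38), with adjusted p of 0.459 and 0.502 (limma). In the former the difference was -0.44 in the input channel and -0.038 in the enriched channel. In the direction of lower values in high-gain heifers, the 5 regions largest by moderated t differed by -0.41 (28443977), -0.30 (28318672), -0.29 (28337541), -0.10 (28397418) and -0.052 (28475572). All but the first of these turned in sign under some other processing. The first of these was the region without overlap, with high-gain heifers reaching 0.11 and low-gain heifers down to 0.14. The region at 28318672 differed by 0.44 in the enriched and 0.74 in the input channel, both higher in high-gain heifers.

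The 21 windows gave a similar picture at 10 kb, where 3 had higher and 0 lower values with an unadjusted p under 0.05. Over all 655 windows these shares were 7.63% and 7.79%, and 0% passed when adjusted (limma). The difference was positive in 17 of 21 windows, against 47.8% of all windows. The groups did not overlap in 1 window with higher and 0 with lower values, against 1.98% and 3.21% of all windows. The window from 28378532 differed by 0.94 (standard error 0.25; limma, adjusted p = 0.181), and was the one without overlap. The next, from 28496733, differed by 0.80 (standard error 0.30; limma, adjusted p = 0.291), and without low-gain heifer 5 by 1.15, which passed (limma, adjusted p = 0.0174), as did 5.80% of all windows. In it heifer 5 stood at 0.08, and heifers 6, 7 and 8 read -1.55, -0.99 and -1.38. The window from 28426893 differed by 0.61 (standard error 0.26; limma, adjusted p = 0.302), with low-gain heifer 6 far below the other low-gain heifers. The count of 3 windows became 7 without heifer 4, 5 without heifer 5, 2 without heifer 1 or 2 and 1 without heifer 6. These were 33.3%, 23.8%, 9.52% and 4.76% of locus windows. Over all windows the share was 11.5% without heifer 4, 11.9% without heifer 5, 5.19% or 4.89% without heifer 1 or 2 and 4.12% without heifer 6. In the lower direction the windows from 28337541, 28317650 and 28438295 differed by -0.35, -0.22 and -0.052.

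Among single probes, the 5 largest by moderated t in the higher direction all had input well above background on all 8 arrays. Enriched signal was well above background on all 8 arrays at 3 of them, and on 4 high-gain and 3 low-gain arrays at those starting at 28418512 and 28505666, whose differences thus include 1 low-gain value from a dim spot. The probe starting at 28418512 read 0.34, 0.27, 1.06 and 3.05 in heifers 1 to 4 and -3.51, -2.47, -1.35 and -0.82 in heifers 5 to 8. It differed by 3.22 (standard error 0.78; limma, adjusted p = 0.262), with 2.86 in the enriched channel. The groups did not overlap, and the spread within each group was wide. The probe at 28391308 read 0.81, -0.27, 0.09 and 0.46 in heifers 1 to 4 and -0.80, -1.47, -1.03 and -1.99 in heifers 5 to 8, again without overlap (difference 1.59, standard error 0.45; limma, adjusted p = 0.288).

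At the remaining 3, low-gain heifer 5 sided with the high-gain heifers. The probe at 28514615 read 0.82 to 1.60 in high-gain heifers and 0.88, -2.61, -1.65 and -2.86 in heifers 5 to 8, a difference of 2.76 (standard error 0.77; limma, adjusted p = 0.288). The probe at 28505666 read 0.26 to 1.08 in high-gain heifers and 0.46, -2.59, -1.93 and -3.41 in heifers 5 to 8, a difference of 2.40 (standard error 0.76; limma, adjusted p = 0.314). The probe at 28391567, which lies 259 bp from the one at 28391308, differed by 2.01 (standard error 0.62; limma, adjusted p = 0.307). Without heifer 5 these 3 passed, with differences of 3.57, 3.18 and 2.57 (limma, adjusted p = 0.0237, 0.0245 and 0.0368). As they were set apart by that heifer, a lower p without it was built in. Of all probes 3.01% passed without heifer 5, and of locus probes 1.72%. Leaving out heifer 6, 7 or 8 instead gave the 3 probes adjusted p from 0.541 to 0.670 (limma).

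The 5 largest in the lower direction were probes not well above background on some or all arrays. At 28492409 and 28339559 the enriched channel was below that level on all 8 arrays, and at 28339559 neither was the input, so their differences of -2.03 and -1.84 (limma, adjusted p = 0.249 and 0.317) are not measured folds. At 28323335 and 28338759 neither channel was well above background on any low-gain array. They differed by -2.53 and -1.91 (limma, adjusted p = 0.249 each), while the input channel was higher in high-gain heifers by 2.80 and 3.46 and the enriched channel by 0.26 and 1.55. The probe at 28318960 differed by -2.21 (limma, adjusted p = 0.314), with 2.57 in input and 0.36 in the enriched channel. Its input was well above background on 4 high-gain arrays and 1 low-gain array.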

How the data were processed

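DNA from the arcuate nucleus of 8 heifers was measured on 1 array each. Per the file headers, the deposited intensity values are processed signals of Agilent Feature Extraction 10.7.1.1 (protocol ChIP_107_Sep09), background-subtracted, detrended and linearly dye-normalised, with positions on Btau_3.1. The authors' deposited log2 values matched, within 0.0001, ratios of median signals after background subtraction wherever both were positive. They run enriched over input and were not centred (array medians -0.42, 0, -0.51, -1.07, -0.87, -0.89, -1.52 and -1.82 for heifers 1 to 8) and served as an alternative. The deposited log10 ratio was not used.

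From the processed signals log2(enriched/input) was computed, 28 outlier-flagged spots were removed (1 in the locus), and the median of each array was subtracted. Probes, regions (at least 3 probes), windows of 10000 bp and tiled loci (10 or more probes, gaps up to 20000 bp) were fitted over the whole array in R 4.3.3 by limma 3.58.1 (lmFit, then eBayes). Tests were two-sided with Benjamini-Hochberg adjustment and a threshold of 0.05. The profile test set the mean of both group means against 0. The steps were tested on simulated data.

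Named were the 5 highest and 5 lowest regions and 3 highest and 3 lowest windows of the profile, and, per direction of the group difference by moderated t, 5 regions, 5 probes and 3 windows, and any run. The locus and these rules were chosen with earlier results of these data known. No spot of the locus was saturated. The number of arrays limits the precision. Batches of capture or labelling are not given in the labels.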

Additional observations from a re-analysis of the deposited data

Results flagged for a closer look

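Of 86 groups of 4 arrays examined for 1 heifer far from the other 3, 3 were flagged. By chance about 1 in 20 would be, and 3 of 86 is not above that rate. In the window from 28406973, low-gain heifer 5 read 0.040 and the other low-gain heifers -1.29 to -1.09. At the probe starting at 28391567, low-gain heifer 5 read 0.25 and the others -2.20 to -1.81. In the window from 28426893, low-gain heifer 6 read -1.55 and the others -0.64 to -0.60.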

How the results depend on the processing

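The difference of the locus stayed positive in all 21 alternatives, from 0.057 (within slide row 2) to 0.67 (probes above background in both channels), and passed only with array weights (0.44); leaving out 1 heifer gave 0.11 to 0.40. The profile mean stayed below 0 in all 20, from -0.63 to -0.25, and missed the threshold only within slide row 1 (-0.25); leaving out 1 heifer gave -0.46 to -0.31. With array weights 8 probes, 3 regions and 7 windows passed the adjusted threshold. Under them 96 probes were higher and 34 lower, 9 regions higher, 9 windows higher and 16 regions called in the profile. These weights raised calls across the array, where 3.22% of probes, 20.0% of regions and 24.3% of windows passed. There 15.1% of probes were higher and 16.0% lower. Of all regions 15.6% were higher and 33.2% called in the profile, and of all windows 18.0% were higher. With normexp 52 probes (12.8%), 7 regions (25.9%) and 6 windows (28.6%) were higher and 14 regions were called in the profile. Over the whole array with normexp, 9.18% of probes, 18.2% of regions and 24.7% of windows were higher and 29.8% of regions called. Loess gave 14 probes higher, 11 lower and 13 profile regions, and 55.8% of the brightest locus probes higher. Beside these stood 5.06% of all probes higher, 5.35% lower, 26.4% of all regions called and 32.9% of the brightest probes elsewhere higher. Over probes above background in input, 2 of 264 probes were lower, and 5 of 24 regions and 7 of 21 windows higher. Of these 24 regions, 16 were called in the profile. Over the whole array with this filter, 3.41% of probes were lower, 13.7% of regions and 16.7% of windows higher and 24.97% of regions called. In both channels, 110 of 138 probes had a positive difference, 0 were lower and 5 of 18 windows were higher. Over the whole array with that filter, 5.21% of probes were lower and 14.6% of windows higher. In the enriched channel alone 21 probes were higher and 7 lower and 1 window was lower. Over the whole array these shares were 4.50%, 3.03% and 6.87%. In that channel the differences at the probes 28323335, 28338759 and 28318960 turned to 0.26, 1.55 and 0.36. That of the region at 28366990 turned to -0.038. Scaling gave 1 window higher (4.76%), against 4.27% of all windows. A limit of 0.01 on the unadjusted p left 4 of 406 probes higher and 3 lower. The share of all probes at that limit is not given here, so these counts are not a result about the locus. Regions joined at 500 bp gave 5 higher (10.4%) and 2 lower (4.17%), against 6.95% and 5.51% of all such regions. Joined at 2000 bp they gave 1 higher (8.33%), against 6.88%. Windows of 20000 bp gave 1 higher (9.09%), against 6.29%, and of 5000 bp 1 lower (2.44%), against 5.51%. Within slide row 1, 6 probes were lower, 5 regions and 6 windows higher and 2 profile regions called. Over all features there, 1.59% of probes were lower, 6.98% of regions and 6.26% of windows higher and 2.5% of regions called. Within slide row 2, 0 regions were higher, 1 region and 1 window lower and 5 profile regions called. Over all features there, 5.52% of regions were higher, 7.5% of regions and 7.33% of windows lower and 11.9% of regions called. Leaving out 1 heifer gave 16 to 57 probes higher, 13 to 28 lower and 0 to 7 past the adjusted threshold. It gave 2 to 5 regions higher, 1 to 7 windows higher and 0 to 1 past that threshold, and 3 to 14 profile regions. Over the whole array it gave 4.33% to 10.9% of probes higher, 2.94% to 11.9% lower and 0% to 3.01% past that threshold. For all regions these shares were 4.17% to 11.1% higher and 4.17% to 27.0% in the profile. For all windows they were 3.51% to 11.9% higher and 0% to 5.80% past that threshold. The slide rows, the slide column as a block and the filter on both channels were chosen after seeing the data.

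Of 268 alternative values for the 13 higher features given with a test, 267 kept their sign and 13 passed. Of 163 for the 8 lower regions and windows, 42 changed sign. Of 159 for the 8 lowest profile features, all kept their sign and 142 passed. These features were named for their rank in the same 8 arrays, which the alternatives also use. Kept signs were therefore likely from the start and are no separate evidence. In the enriched channel 139 of 406 probes (34.2%, against 44.3% elsewhere) were well above background on all arrays and 51 on none, which limits their ratios. The cause of these changes was not tested. No paired analysis was possible because the heifer numbers are not shared between the groups.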
